A study of Homo sapiens with 8 samples.

Results

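The genes examined here make cysteine from methionine, build glutathione from it and take glutathione apart. They were picked by symbol as a pathway, with earlier results of these data known, and all 10 were found among the 15767 genes of the count table. MAT2A, CBS and CTH stand for cysteine supply, GCLC, GCLM, GSS and GSR for glutathione synthesis and recycling, and CHAC1, CHAC2 and GGT1 for glutathione breakdown. RNA-seq was performed on HuH7 cells, a human hepatoma-derived line of wild-type genotype, that had spent 6 h at 1% oxygen in medium free of glucose. In the following 6 h of normoxia they received either DMSO alone (I/R+DMSO, n = 4) or ginsenoside Rk2, a ginseng saponin, at 20 µM in DMSO (I/R+Rk2, n = 4). All cells thus went through oxygen-glucose deprivation and reoxygenation, and the comparison addresses what Rk2 changed after it. HuH7 is a tumor line, so the values describe that line rather than normal hepatocytes. The labels do not say whether the 4 libraries of a group came from separate cultures, so p-values measure the spread between these libraries, which may be technical.

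Glutathione is a tripeptide of glutamate, cysteine and glycine, and it is the main small thiol with which cells buffer oxidants. Cysteine is usually the limiting part. It is imported as cystine or made by transsulfuration, a route that the liver uses heavily, in which methionine is activated by MAT enzymes, passes through homocysteine and is converted by CBS and then CTH. Glutamate-cysteine ligase, made of the catalytic subunit GCLC and the modifier GCLM, and glutathione synthetase, GSS, then build glutathione, and GSR restores it from its oxidized form. CHAC1 and CHAC2 cleave it inside the cell and GGT1 begins its breakdown at the cell surface.

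Cells given Rk2 held more CHAC1, CTH, GCLM and CBS mRNA and less MAT2A mRNA than cells given DMSO. Of the 10 genes, all of which passed the filter on low counts, 4 were called higher, 1 was called lower and 5 did not pass the threshold, an adjusted p-value of 0.05 in edgeR with Benjamini-Hochberg adjustment over all 12928 tested genes. Among all tested genes 11.0% were called higher and 7.23% lower. The increases of CHAC1 and CTH were also over 1.5-fold, as were those of 2.46% of all tested genes. In 6 of the 10 genes no library of one group lay within the range of the other, against 28.2% of all tested genes. The median log2 fold change of the 10 genes was 0.01, beside -0.0021 over all tested genes. By role, 2 of 3 genes of cysteine supply were higher and 1 lower, 1 of 4 genes of synthesis and recycling was higher, and 1 of 3 genes of breakdown was higher. The counts measure mRNA in bulk samples, where fewer cells with a transcript and less transcript per cell cannot be told apart.

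**Figure D1:**
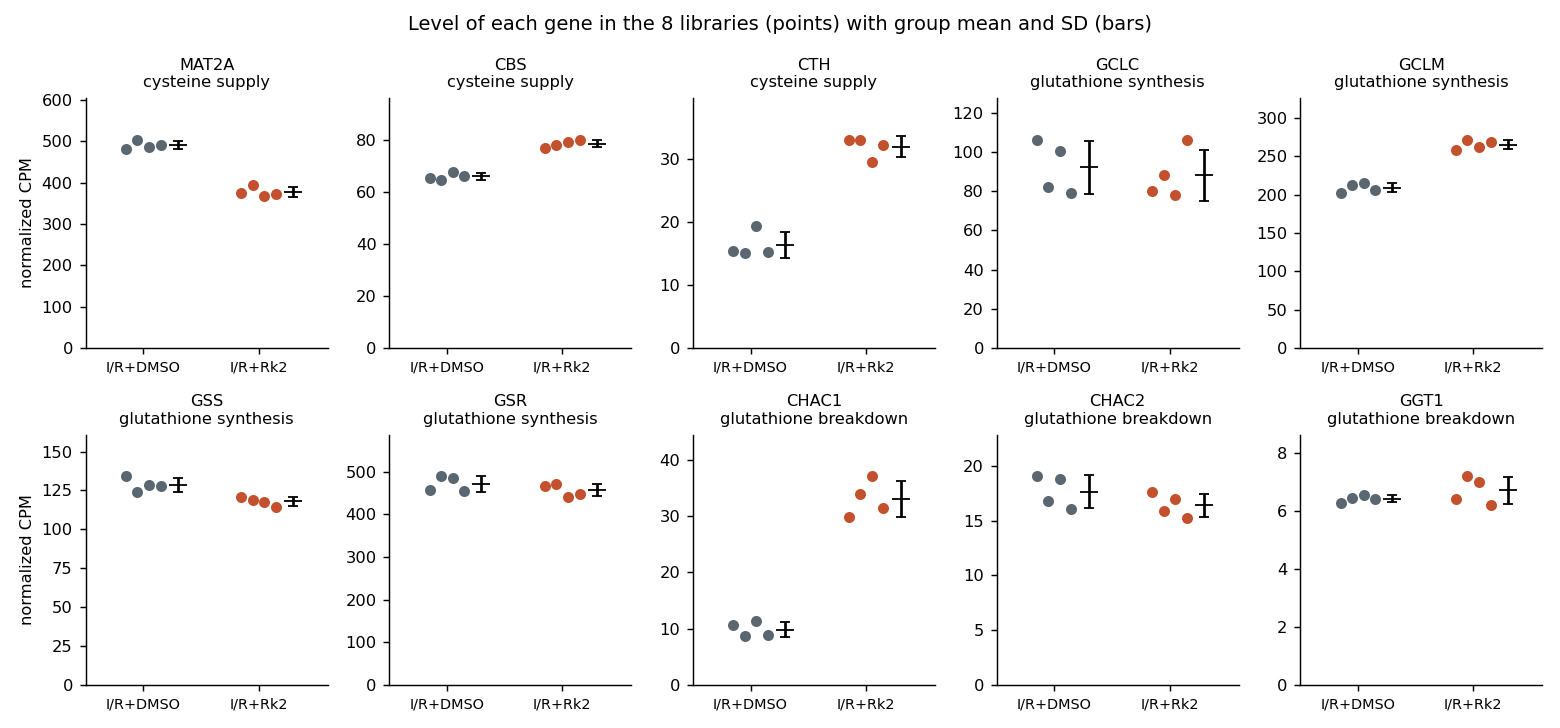
Normalized CPM (y axis, from 0) of the 10 genes in each of the 8 libraries, as points, by group (x axis), with the group mean and SD beside them. The I/R+Rk2 libraries of CHAC1 (29.9 to 37.1), CTH, GCLM and CBS all sit above the I/R+DMSO libraries, those of MAT2A and GSS all sit below, and the other 4 genes overlap.

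Sequencing gave 18428485 to 21447045 counts per library with DMSO and 16374082 to 30310479 with Rk2. On the second principal component, replicate 1 of I/R+DMSO lay away from the other 3, at 78.7 against -48.5 to -41.5, and without it the same numbers of the 10 genes were called, 4 higher and 1 lower. The summed level of 8 hepatocyte markers was 10429 to 11411 CPM with DMSO and 11211 to 11613 with Rk2, and 1 of the 8 was called higher (APOB) and 1 lower (FGB). Of 10 markers of other cell types 8 were in the count table, and their summed level was 677 to 741 CPM with DMSO and 644 to 738 with Rk2. Most of that sum was LYZ, at 577 to 675 CPM over the 8 libraries. The 5 markers that could be tested had adjusted p-values of 0.30 or more in edgeR, and CD3E, COL1A1 and KRT7 never exceeded 0.797 CPM. The part of these differences in the results was not tested.

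Stretches of sequence upstream of 5 of the genes are shown to set the genes beside 2 short motifs of factors often linked to them. TGATGNAA is the composite element that ATF4 and C/EBP proteins bind in amino acid response genes, and TGACNNNGC is the core of the antioxidant response element that NRF2 binds. RefSeq promoter entries on GRCh38.p14 were matched for 8 of the 10 genes, GSS and GSR being without one, with 12 start sites in all, and the 250 bases before each start site were searched on both strands. TGATGNAA was found before 3.14% of 35116 start sites and TGACNNNGC before 10.9%. The sequences run 5′ to 3′ on the strand of the gene, with the match in capitals.
CHAC1, chr15:40953251-40953280, plus strand: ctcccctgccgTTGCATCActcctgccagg
GCLM, chr1:93909446-93909475, minus strand: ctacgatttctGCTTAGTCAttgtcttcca
CBS, chr21:43076442-43076471, minus strand: cccggctctggGCGCGGTCAcgcggggcgc
GGT1, chr22:24603153-24603182, plus strand: gggaaggaggaGCTGGGTCAcagcagggaa
CTH, chr1:70411018-70411217, plus strand, no match: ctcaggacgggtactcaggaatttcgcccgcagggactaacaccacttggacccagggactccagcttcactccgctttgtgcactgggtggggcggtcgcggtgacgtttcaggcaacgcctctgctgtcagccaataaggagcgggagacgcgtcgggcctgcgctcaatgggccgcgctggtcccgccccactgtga
CHAC1 held TGATGNAA on the opposite strand, at -209 to -202 from the start site, in a stretch that is exonic in 2 of 5 GENCODE v29 transcripts. GCLM held TGACNNNGC on the opposite strand at -34 to -26, CBS at -83 to -75 and GGT1 at -29 to -21. MAT2A, GCLC, CHAC2 and CTH held neither in this window. The matches of CBS and GGT1 each lie before only 1 of the start sites searched for that gene. The printed stretch is exonic in 1 of 4 GENCODE v29 transcripts for GCLM, 1 of 27 for GGT1 and 0 of 17 for CBS. For CTH, the 200 bases before its first annotated exon are printed. A match is a description of letters, and binding was not measured.

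Cysteine supply was the role in which all 3 genes passed the test. MAT2A lies at chr2:85539165-85545280 (GRCh38, GENCODE v29) and encodes the methionine adenosyltransferase that makes S-adenosylmethionine outside the adult liver and in dividing or tumor cells. Its normalized CPM was 482, 504, 487 and 492 in I/R+DMSO and 375, 393, 367 and 371 in I/R+Rk2. Every I/R+Rk2 library was below every I/R+DMSO library. Its mean of 491 ± 9.27 CPM dropped to 377 ± 11.4 (SD, n = 4 each), and the log2 fold change was -0.38 (SE 0.0351, adjusted p = 0.00062 in edgeR). Its exons overlap those of GGCX on the other strand, and whether the counting used strand is not given in the sources used here. MAT1A, the form of adult hepatocytes, was nearly absent at 0.360 to 0.659 CPM and did not pass the test.

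CBS, at chr21:43053191-43076943, joins homocysteine to serine in the first step of transsulfuration. Its CPM was 65.6, 64.7, 67.8 and 66.1 in I/R+DMSO and 77.0, 78.2, 79.2 and 80.2 in I/R+Rk2. The groups did not overlap, and the log2 fold change was 0.25 (SE 0.0372, adjusted p = 0.0041 in edgeR), an increase of 19.1%. The near-identical copy CBSL, at chr21:6444869-6468040, was listed at a similar level, 63.4 ± 4.27 CPM with DMSO and 71.9 ± 2.43 with Rk2 (SD, n = 4 each), so the division of reads between the copies is uncertain. CBSL alone had a log2 fold change of 0.18 and did not pass the threshold in edgeR (adjusted p = 0.059). With the counts of both summed, the level was 126.7 to 134.7 CPM with DMSO and 147.2 to 155.5 with Rk2, and the log2 fold change was 0.22 (adjusted p = 0.0072 in edgeR).

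CTH, at chr1:70411218-70439851, encodes cystathionine gamma-lyase, which releases cysteine from cystathionine. It was at 15.4, 15.2, 19.4 and 15.2 CPM in I/R+DMSO, against 33.1, 33.1, 29.6 and 32.2 in I/R+Rk2. Replicate 3 of I/R+DMSO was the highest of its group and still below every I/R+Rk2 library. Its mean level increased from 16.3 ± 2.08 to 32.0 ± 1.67 CPM (SD, n = 4 each), and the log2 fold change was 0.97 (SE 0.0932, adjusted p = 0.00074 in edgeR), 1.96-fold. By the deposited FPKM its mean went from 7.85 to 18.9. Its upstream stretch, shown above, holds neither motif.

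Within glutathione synthesis, the modifier subunit of glutamate-cysteine ligase rose and the catalytic subunit did not pass the test. GCLM, at chr1:93885205-93909456, lowers the ligase's feedback inhibition by glutathione. Its CPM was 202, 213, 216 and 206 in I/R+DMSO and 258, 272, 262 and 269 in I/R+Rk2. The groups were well separated, and the log2 fold change was 0.34 (SE 0.0361, adjusted p = 0.0010 in edgeR), an increase of 26.8%.

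GCLC, at chr6:53497341-53616970, carries out the reaction itself. It was at 106, 82.2, 101 and 79.0 CPM in I/R+DMSO, against 80.0, 88.4, 77.7 and 106 in I/R+Rk2. The groups overlapped over nearly their whole range, and libraries of one group differed by as much as 106 against 77.7 CPM. The log2 fold change was -0.06 with a 95% interval from -0.36 to 0.24 (adjusted p = 0.77 in edgeR). A change of either sign within that interval thus remains compatible with these libraries. Its sign turned without replicate 1 of I/R+DMSO (0.01) and in limma on FPKM (0.05). Its exons overlap those of AL033397.1 on the same strand and of AL033397.2 on the other.

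GSS, at chr20:34928433-34956027, adds glycine in the last step. It was at 134, 124, 128 and 128 CPM in I/R+DMSO, against 121, 119, 118 and 114 in I/R+Rk2. The libraries did not overlap, yet the log2 fold change of -0.12 (95% interval -0.21 to -0.03) did not pass the threshold in edgeR (adjusted p = 0.060). It passed with DESeq2 (adjusted p = 0.023) and with upper-quartile normalization in edgeR (adjusted p = 0.032). GSR, at chr8:30678061-30727999, encodes glutathione reductase. Its CPM was 455 to 490 with DMSO and 441 to 471 with Rk2, and the log2 fold change was -0.05 (95% interval -0.14 to 0.05, adjusted p = 0.46 in edgeR).

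In glutathione breakdown the largest difference of the 10 genes was found. CHAC1, at chr15:40952962-40956519, encodes a gamma-glutamylcyclotransferase that cleaves reduced glutathione and is known as a gene of the ATF4 stress response. It was at 10.6, 8.61, 11.3 and 8.81 CPM in I/R+DMSO, against 29.9, 33.9, 37.1 and 31.4 in I/R+Rk2. The lowest I/R+Rk2 library was thus more than double the highest I/R+DMSO library. On average it increased from 9.83 ± 1.32 to 33.1 ± 3.15 CPM (SD, n = 4 each), and the log2 fold change was 1.75 (SE 0.113, adjusted p = 0.00011 in edgeR), 3.36-fold. By fold it ranked 26 among the rises of all tested genes, where CTH ranked 153. These values rest on 183 or more counts per library.

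CHAC2, at chr2:53767792-53775196, encodes the constitutive enzyme of the same family. Its CPM was 19.1, 16.8, 18.8 and 16.1 in I/R+DMSO and 17.6, 15.9, 17.0 and 15.3 in I/R+Rk2. The groups overlapped, with a log2 fold change of -0.10 (95% interval -0.29 to 0.08, adjusted p = 0.40 in edgeR). GGT1, at chr22:24583750-24629005, encodes the gamma-glutamyltransferase of the cell surface. It was at 6.26 to 6.55 CPM with DMSO and 6.22 to 7.20 with Rk2, and its log2 fold change was 0.06 (95% interval -0.12 to 0.24, adjusted p = 0.70 in edgeR). Reads of GGT1 are uncertain because of its close paralogs, of which GGT2 had 0 to 14 counts per library, and because its exons overlap those of SNRPD3 on the same strand.

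**Figure D2:**
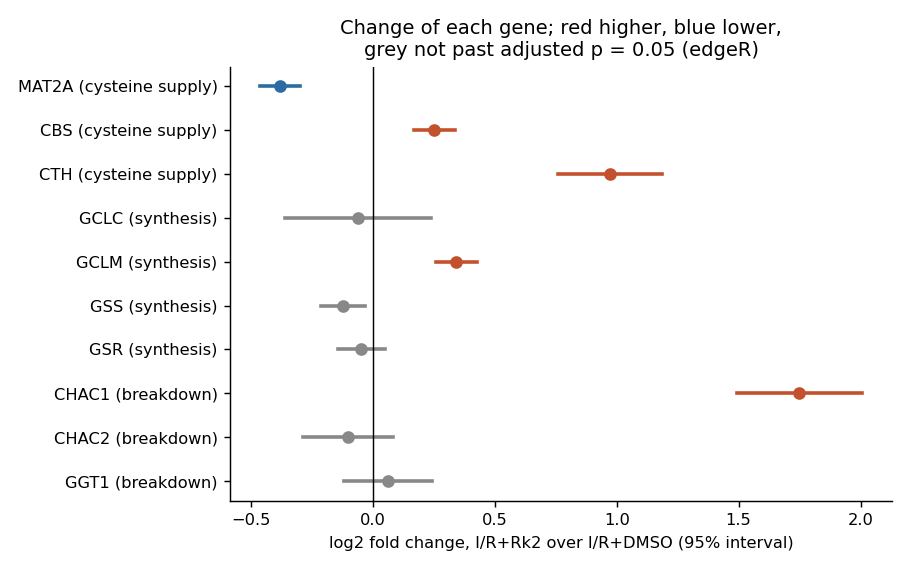
Log2 fold change of I/R+Rk2 over I/R+DMSO (x axis) for each gene (rows, with its role), as a point with its 95% interval from edgeR, colored by call. CHAC1 at 1.75 and CTH at 0.97 lie apart from GCLM and CBS, MAT2A is the blue point at -0.38, and the intervals of GCLC, GSR, CHAC2 and GGT1 cross 0.

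Per transcript length, GSR and MAT2A were the most abundant of the 10 mRNAs and GGT1 the least in both groups. In I/R+DMSO the order of mean FPKM was GSR (151), MAT2A (149), GSS (55.5), GCLM (48.2), CBS (25.5), GCLC (24.3), CHAC2 (11.0), CTH (7.85), CHAC1 (5.58) and GGT1 (3.88). Libraries of GSR and MAT2A, of CBS and GCLC, and of CHAC1 and GGT1 overlapped, so these neighbors were not separated beyond their spread. The FPKM of GSR was 213 in replicate 2 of I/R+DMSO and 127 to 136 in the other 3, although its CPM there was 490 against 455 to 487. In I/R+Rk2 the order was GSR (131), MAT2A (118), GCLM (60.7), GSS (51.9), CBS (31.1), GCLC (25.2), CHAC1 (19.5), CTH (18.9), CHAC2 (10.5) and GGT1 (4.34). There CHAC1 and CTH were not separated from each other, and both were above CHAC2 in every library, as GCLM was above GSS. GGT1 varied more in FPKM, from 2.83 to 5.82 over the 8 libraries, than in CPM.

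**Figure D3:**
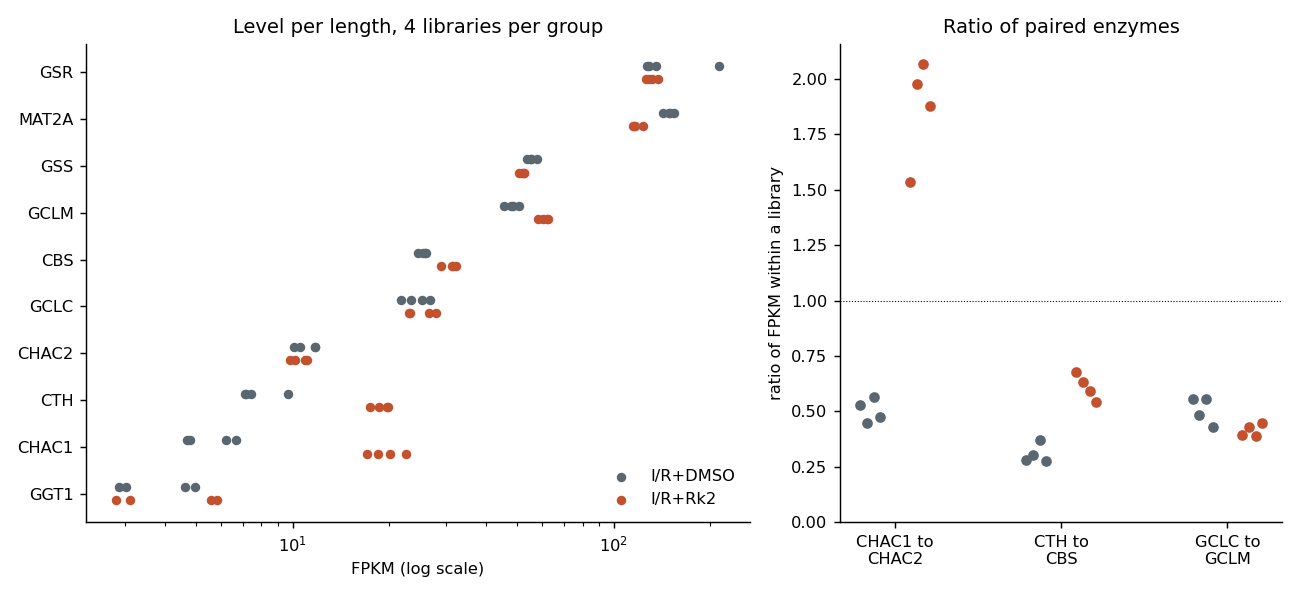
Left, FPKM of each gene on a log x axis in the 4 libraries of each group, ordered by the I/R+DMSO mean. Right, the ratio of FPKM of paired enzymes within each library on a y axis from 0, where CHAC1 to CHAC2 goes from 0.445 to 0.565 in I/R+DMSO to 1.53 to 2.07 in I/R+Rk2.

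Ratios of FPKM within a library do not depend on how that library was scaled, and 3 were tested with two-sided exact permutation tests, for which 4 libraries against 4 allow no p below 0.0286. CHAC1 to CHAC2 went from 0.503 ± 0.0539 to 1.86 ± 0.233 (SD, n = 4 each), with every I/R+Rk2 library above every I/R+DMSO library (exact permutation p = 0.0286, 0.0429 adjusted over the 3 ratios). The balance of these enzymes thus crossed 1, from more CHAC2 to more CHAC1 mRNA per length. CTH to CBS went from 0.308 ± 0.0445 to 0.610 ± 0.0582 (SD, n = 4 each), again without overlap (exact permutation p = 0.0286, adjusted 0.0429). Both ratios restate, in the same libraries, the differences of CHAC1 and CTH given above, so they are no separate evidence. The reads that CBS shares with CBSL bear on the CTH to CBS ratio too. GCLC to GCLM was 0.506 ± 0.0607 in I/R+DMSO and 0.415 ± 0.0290 in I/R+Rk2 (SD, n = 4 each). Its libraries overlapped, at 0.431 to 0.557 and 0.387 to 0.448, and the difference did not pass the threshold (exact permutation p = 0.0571, adjusted 0.0571).

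Genes around the same pathway were counted from lists put together by function. Beside each list count stand the shares over all tested genes, 11.0% called higher and 7.23% lower. Of 15 tested genes of the methionine cycle and methyl use, beside MAT2A, 2 were called higher and 2 lower, and the median log2 fold change was -0.04. AMD1, which commits S-adenosylmethionine to polyamines, rose from 174 ± 11.3 to 233 ± 9.39 CPM (SD, n = 4 each), and its log2 fold change was 0.42 (adjusted p = 0.0026 in edgeR). AHCY, which releases homocysteine, had -0.13 and GAMT, which spends methyl groups on creatine, had -0.41 (adjusted p = 0.034 and 0.048 in edgeR). They missed the threshold in 11 and 15 of 21 alternative analyses. Among these, AHCY was lost without any one of replicates 2 and 3 of I/R+DMSO and 1 to 4 of I/R+Rk2 (adjusted p up to 0.087 in edgeR), and GAMT without any one library but replicate 1 of I/R+DMSO (up to 0.11).

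Among 16 tested genes of cystine uptake and cysteine use, 5 were called higher and 1 lower, with a median of -0.07. Over all tested genes 11.0% were higher and 7.23% lower. SLC7A11, the cystine importer, was at 65.3, 69.4, 67.2 and 80.5 CPM in I/R+DMSO, against 161, 169, 175 and 181 in I/R+Rk2, and its log2 fold change was 1.28 (adjusted p = 6.7e-05 in edgeR). Its partner SLC3A2 rose from 359 ± 27.4 to 532 ± 22.4 CPM (SD, n = 4 each). Its log2 fold change was 0.57 (adjusted p = 0.0011 in edgeR), which missed the threshold in the 3 limma fits on FPKM. SLC1A4, a carrier of small neutral amino acids including cysteine, rose by 1.02 on the log2 scale (adjusted p = 9.9e-05 in edgeR), and CTNS, which exports cystine from lysosomes, 0.34 (adjusted p = 0.0083 in edgeR). SQOR, which oxidizes hydrogen sulfide in mitochondria, fell by 0.55 on the log2 scale, from 52.5 ± 3.63 to 35.7 ± 1.27 CPM (SD, n = 4 each) (adjusted p = 0.0013 in edgeR). Genes of cystine import and of transsulfuration were thus both higher with Rk2, while MAT2A, upstream in transsulfuration, was lower.

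Further genes of glutathione breakdown, use and transport were counted beside the shares of all tested genes, 11.0% called higher and 7.23% lower. Of 6 tested genes of breakdown and dipeptide cleavage 1 was called higher, with a median of 0.01. It was OPLAH, which opens the 5-oxoproline that CHAC enzymes release, with a log2 fold change of 0.24 (adjusted p = 0.020 in edgeR), a call that was lost in 10 of 21 alternatives, among them the fits without replicate 2 of I/R+DMSO or 1, 2 or 4 of I/R+Rk2 (adjusted p up to 0.057). Of 33 tested genes of glutathione use and NADPH supply 1 was called higher and 5 lower, with a median of -0.05. ME1, which makes NADPH from malate, rose from 138 ± 1.29 to 161 ± 2.54 CPM (SD, n = 4 each, adjusted p = 0.0036 in edgeR). The pentose phosphate enzyme PGD had a log2 fold change of -0.22, the peroxidase GPX2 -0.46 and the transferase GSTO1 -0.30 (adjusted p = 0.0055, 0.023 and 0.026 in edgeR), and they missed the threshold in 3, 8 and 6 of the 21 alternatives. With 1 library left out, GPX2 missed it without replicate 2 of I/R+DMSO or 1, 2 or 4 of I/R+Rk2 (adjusted p up to 0.061), and GSTO1 without replicate 2, 3 or 4 of I/R+Rk2 (up to 0.071), both in edgeR. Of 9 glutathione carriers 1 was called higher, ABCC4 at 0.25 (adjusted p = 0.030 in edgeR), and this call was lost in 11 of 21, also without replicate 2 or 3 of I/R+DMSO or 1, 3 or 4 of I/R+Rk2 (adjusted p up to 0.084).

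The list of ATF4 and stress response genes, to which CHAC1 and CTH are often assigned, held 8 genes called higher and 1 lower of 10, with a median log2 fold change of 0.54. It was put together with earlier results of these data known, so its direction is no independent evidence. ATF4 itself went from 514 ± 35.9 to 693 ± 13.4 CPM (SD, n = 4 each, adjusted p = 0.0019 in edgeR), and ASNS, CEBPB and SESN2 had log2 fold changes of 1.00, 0.65 and 1.32 (adjusted p = 5.5e-06, 0.00017 and 5.2e-05 in edgeR). DDIT3 rose from 12.3 ± 4.46 to 25.5 ± 4.68 CPM (SD, n = 4 each, adjusted p = 0.030 in edgeR), a call lost without any one library but replicates 1 and 3 of I/R+DMSO (adjusted p up to 0.070). ATF5 was lower, at -0.44 (adjusted p = 0.0072 in edgeR). TRIB3 did not pass the test, with 308 CPM in replicate 3 of I/R+Rk2 and 166 to 171 CPM in the other 3, against 152 to 155 CPM in I/R+DMSO. Of 13 genes of NRF2 and its targets, the other factor under which GCLM and GCLC are usually placed, 1 was called higher and 1 lower, with a median of -0.05. The counts of both lists stand beside 11.0% called higher and 7.23% lower over all tested genes. The log2 fold change of HMOX1 was 0.48 (adjusted p = 0.0035 in edgeR) and that of AKR1B10 was -0.27 (adjusted p = 0.036 in edgeR). The call of AKR1B10 was lost in 15 of 21 alternatives, including every fit with 1 library left out but that without replicate 2 of I/R+Rk2 (adjusted p up to 0.088). NQO1 was at -0.14 and NFE2L2 at 0.14, neither past the threshold in edgeR with TMM (adjusted p = 0.058 and 0.67). NQO1 passed with DESeq2 (adjusted p = 0.027) and with upper-quartile normalization in edgeR (adjusted p = 0.038).

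**Figure D4:**
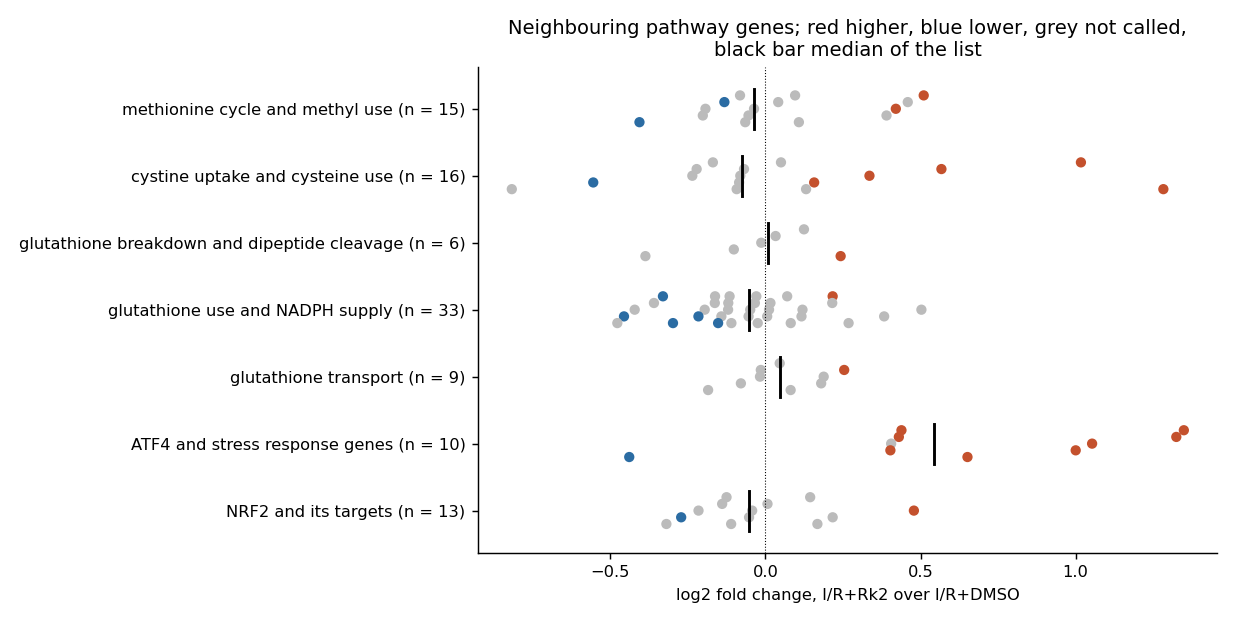
Log2 fold change (x axis) of each tested gene in the 7 surrounding lists (rows, n tested genes), colored by call at an adjusted p of 0.05, with the list median as a black bar; height within a row has no meaning. The median of the ATF4 and stress response list is at 0.54, and those of the other 6 lists lie between -0.07 and 0.05.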

How the data were processed

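The authors deposited 15767 genes as raw, unnormalized counts, together with FPKM values normalized for gene length and library size. Libraries were made with an MGIEasy kit. The submitters' processing notes name FastQC 0.11.5, HISAT2 2.2.1, StringTie 1.3.3 and the build hg38. The annotation and the read counter are not given in the sources used here. Among the counted genes 22 symbols, holding 0.111% of counts, had been turned into dates and name no gene.

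Samples were grouped by their labelled treatment. The count filter kept 12928 genes that reached 10 counts in 4 or more libraries. They were TMM-normalized and fitted in edgeR by robust quasi-likelihood, treatment being the sole term, and p-values were adjusted by Benjamini-Hochberg. These genes hold 99.96% of all counts. Fold changes divide I/R+Rk2 by I/R+DMSO, and ± is the SD. R 4.3.3, edgeR 4.0.16, limma 3.58.1 and DESeq2 1.42.0 were used, and the scripts were tested on simulated data. FPKM served for levels between genes, ratios and alternative fits. Gene positions and exon overlaps come from GENCODE v29 on GRCh38, and sequences from RefSeq on GRCh38.p14.

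The 10 genes and all lists were chosen with earlier results of these data known. From each list the called genes were named, at most 4 per direction by smallest p, beside SLC7A11, SLC3A2, ATF4, DDIT3, TRIB3, NFE2L2, NQO1 and HMOX1. Some genes that this rule includes are counted but not reported by name here. APOB and FGB were named after their values were seen.

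The 21 alternatives were DESeq2, upper-quartile or library size scaling, no filter or a minimum of 50 counts everywhere, limma on log2(FPKM + 1), unfiltered or above a mean FPKM of 0.5, and on log2(FPKM + 0.1), voom with sample weights, a gene length correction by loess with a span of 0.5, a replicate block with and without it, each of 8 libraries left out, and the sum of CBS and CBSL, which was added after seeing the data.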

Additional observations from a re-analysis of the deposited data

Results flagged for a closer look

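In 4 of 40 sets of 4 values (each of the 10 genes, in either group, as CPM or FPKM) the highest or lowest library was far from the other 3 by Dixon's test, and chance flags about 5% of such sets. CTH in replicate 3 of I/R+DMSO was at 19.4 CPM against 15.2 to 15.4 in the other 3, and at 9.69 FPKM against 7.14 to 7.43. Both values are below every I/R+Rk2 library. MAT2A in replicate 2 of I/R+Rk2 was at 124 FPKM, the highest of its group. GSR in replicate 2 of I/R+DMSO was at 213 FPKM against 127 to 136 in the other 3, where its CPM showed no such gap.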

How the results depend on the processing

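CHAC1, CTH, GCLM, CBS and MAT2A kept their direction and their call in all 21 alternatives. Their log2 fold changes ranged from 1.65 to 1.82, 0.94 to 1.27, 0.24 to 0.37, 0.22 to 0.29 and -0.43 to -0.34, and their adjusted p-values were at most 0.0049, 0.014, 0.023, 0.023 and 0.0090. With DESeq2 and with upper-quartile normalization 2 of the 10 genes were called lower, GSS being the added one. GCLC turned to 0.0499 with limma on log2(FPKM + 1), with or without the filter, and to 0.0517 on log2(FPKM + 0.1), and lay between -0.17 and 0.0131 with each library left out. NFE2L2 lay between -0.0115 and 0.38 with each library left out, the lowest without replicate 1 of I/R+DMSO. Genes called higher over the whole table fell from 1416 to 817 with limma on log2(FPKM + 1), 810 on log2(FPKM + 0.1), 725 without its filter and 698 with the replicate block and length correction, and were 861 to 1414 with each library left out, lowest without replicate 4 of I/R+Rk2. Genes called higher rose to 1683 with DESeq2, 1643 with library size only and 1605 with voom. Genes called lower fell from 935 to 313, 309 and 276 in the limma fits and were 430 to 887 with each library left out. Those called lower rose to 1296 with DESeq2, 1300 with upper-quartile normalization and 1243 with the gene length correction. In the surrounding lists 10 genes were called lower, against 6 with library size only, 2 in each limma fit on FPKM and 3 to 9 with each library left out. With DESeq2 and with upper-quartile normalization 14 list genes were called lower. Of 777 values of the 10 genes and 27 named genes under the alternatives, 668 kept direction and call, 100 lost the call, 4 gained it and 5 reversed. ME1 lost the call only with the replicate block and length correction (adjusted p = 0.071 in edgeR). The log2 differences of the ratios kept their direction, and with a library left out they were not tested. Their size depended on the measure. From CPM in place of FPKM, CTH to CBS differed by 0.73 against 0.99 and CHAC1 to CHAC2 by 1.86 against 1.89. GCLC to GCLM differed by -0.41 from CPM against -0.28 from FPKM. The adjusted exact permutation p-values from CPM were 0.0429, 0.0429 and 0.0857 in that order. The labels do not say whether the replicate numbers pair the samples. Deviations of same-numbered libraries correlated at -0.0094 to 0.085, and the highest correlation with another number was 0.016 to 0.077. Low correlations cannot show that the samples were unpaired. With a replicate block 4 of the 10 genes were called higher and 1 lower, as without it, and 1142 and 672 genes over the whole table. The cause of these shifts was not tested. Depth limits chiefly genes near the count filter, and GGT1, at 116 to 196 counts, was the least covered of the 10.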
